A study of Mus musculus with 3 samples.

Results

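Cytosolic ribosomal protein genes encode the proteins of the ribosome that works in the cytoplasm. They were taken as all symbols that start with Rpl (large subunit) or Rps (small subunit) followed by a number, together with Rplp0, Rplp1, Rplp2 and Rpsa, leaving out the Rps6k kinases and Rps19bp1. This gave 85 of the 32524 genes on the arrays, read by 173 probes. Probes that matched no gene symbol were counted under the array's own identifier. The 32524, and all genes tested below, therefore include such identifiers. Of these, 76 were core members (46 of the large and 30 of the small subunit) and 9 were extra copies. Among the copies, Rpl10l and Rpl39l are known from the testis, Rpl3l is known from heart and skeletal muscle, and Rps4l, a copy related to Rps4x, is listed by RefSeq as a transcribed pseudogene. The other 5 copies were Rpl22l1, Rpl7l1, Rpl36al, Rps27l and Rps23rg1. The rule covers 90 protein-coding genes in the RefSeq gene table, of which 6, Rps23 among them, had no probe matched here.

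A ribosome holds 1 copy of nearly every one of these proteins, so a cell makes them in matched amounts, and their messages are among the most abundant in a growing fibroblast. Many begin with a run of pyrimidines at the first transcribed base, the terminal oligopyrimidine tract, through which mTOR signalling and LARP1 control their translation and storage. Some of the proteins also act outside the ribosome: RPL5, RPL11 and RPL23 can bind MDM2 and so stabilise p53.

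RNA came from primary mouse embryonic fibroblasts of the C57BL/6J background, made from an embryo at day E10.0. All 3 groups, controls included, carried Rb-/-;ATM-/- as their starting genotype. The first group received an empty vector, the second a vector for an shRNA against DNMT1 (the maintenance DNA methyltransferase), and the third a vector expressing ATM (the DNA damage kinase that these cells lack). Each was kept in puromycin at 4 µg/ml for 3 days and was cultured for 4 days more. One labelled RNA of each group was hybridised to its own 1-colour array, so no difference below has a replicate, a p-value or an error between cultures, and precision is limited by how few arrays there are. The promoter behind each vector is not given in the sources used here.

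The Dnmt1 probe read 4908 on the empty-vector array, 956 with the shRNA and 3169 with the ATM vector, so 21.8% of the control level was left with the shRNA after scaling. The Atm probes cannot check the ATM label, because it is not known which part of the message the vector carries: the brighter one read 430.2, 366 and 409 in the same order. The Rb1 probe read 541, 782 and 459.7, well above background on all 3 arrays; the deleted part of Rb1 is not given in the sources used here, so this checks nothing about the genotype. Of 12 fibroblast markers, 11, 12 and 12 were well above background, Thy1 being the one that was not on the empty-vector array. The germ-cell markers Ddx4, Dazl and Dppa3 were not above background on any array. Of 6 epithelial markers, 2, 4 and 2 were above background, with summed signals of 192, 2491 and 4651, Krt8 and Krt18 being detected with the shRNA only and Epcam and Cldn4 on no array. The summed signals of blood and macrophage markers were 2059, 4789 and 1625, with Adgre1 dim on all arrays. Those of endothelial markers were 4608, 3804 and 6351, with Cdh5 dim throughout, and those of pluripotent markers were 337, 263 and 480.0, with Pou5f1 and Zfp42 dim throughout. The part of any such cells in the results below was not tested. The empty-vector and shRNA arrays shared a slide and a scan, whereas the third array had a slide and a scan to itself, so for that array slide and vector cannot be told apart. In bulk RNA, fewer cells of a kind and less RNA per cell cannot be told apart either.

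Levels are given as processed signal (brightness in scanner units, background already subtracted, geometric mean where a gene has several probes). Differences are log2 ratios after each array's log2 signals were set relative to their own 75th percentile, so a ratio compares a gene with the bulk of the same array. A gene was tested if either array of the pair read a probe of it well above background, and it was called different at 1.5-fold, which is 0.58 on the log2 scale. The call is a size, not a test.

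The largest differences in the family lay in 2 of the extra copies. Rpl39l, a copy of Rpl39 made chiefly in male germ cells, read 8.09 with the empty vector, 1324 with the Dnmt1 shRNA and 7.03 with the ATM vector. It was well above background on the shRNA array only. Its log2 ratio to the empty vector was 7.52, and since its control signal was dim, it was at least 39.3-fold higher with the shRNA. It was at least 41.3-fold higher on the shRNA array than on the array labelled ATM vector. These bounds set the brighter signal against the dimmer array's lowest signal that still counted as well above background, which was 37.8, 25.1 and 32.7 on the 3 arrays in the order above.

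Rps4l had the same order of arrays. Its signal was 15.5, 371 and 6.98, again well above background on the shRNA array only. The log2 ratio of the shRNA array to the empty-vector array was 4.74, and the gene was at least 11.0-fold higher there, or at least 11.6-fold higher than on the array labelled ATM vector. All 4 bounds hold for the processing used here only. With a different background correction (normexp), the log2 ratios of Rpl39l and Rps4l to the empty vector were 4.51 and 2.40, under the bounds of 5.30 and 3.46 on that scale. The ratios of the ATM-vector array to the shRNA array were then -4.47 and -2.62, smaller in size than the bounds of -5.37 and -3.53. Each of these copies had 1 probe, so no second probe checked it.

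The core genes they resemble did not share the pattern. The 3 probes of Rpl39 differed between the shRNA and the empty-vector array by log2 ratios of 0.00 to 0.02, also for its dimmest probe, which read 1407, 1275 and 1466. The probe of Rps4x, the X-linked core gene related to Rps4l, read 116005, 95580.3 and 154899, a log2 ratio of -0.11 for the shRNA array. The 3 germ-cell markers had a summed signal of 29.6, 18.1 and 23.1 on the 3 arrays, so they did not move with Rpl39l.

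The other restricted copies stayed dim. Rpl10l, the autosomal copy of the X-linked Rpl10 that serves spermatogenesis, read 9.14, 11.0 and 10.1, and Rpl3l, the muscle copy of Rpl3, read 15.9, 5.13 and 7.0. Neither was well above background on any array, so no ratio is given.

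**Figure D1:**
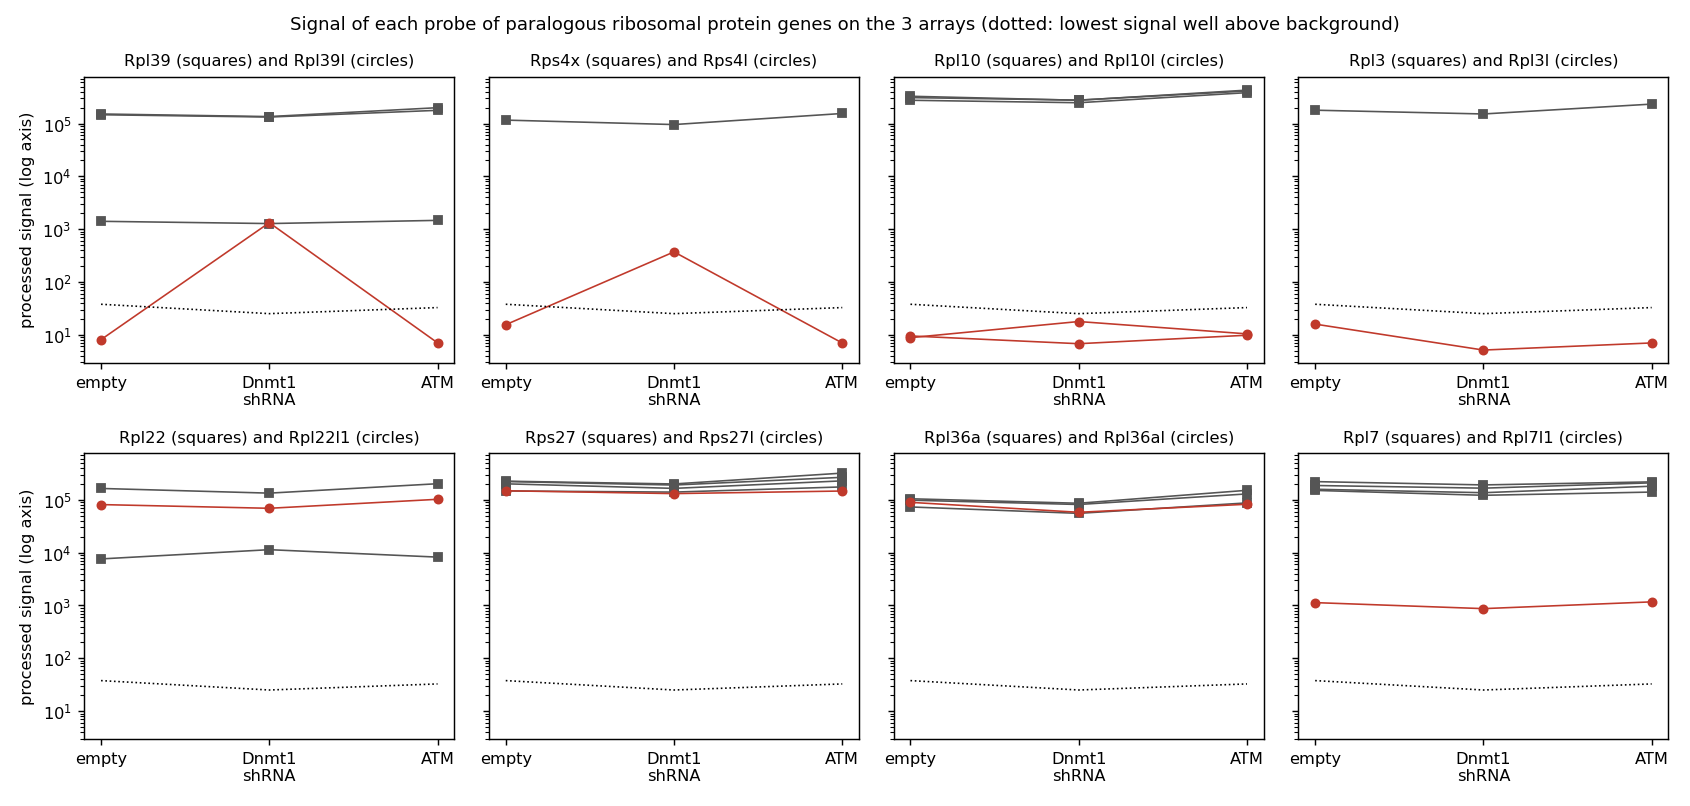
Processed signal (log axis) of each probe on the empty-vector, Dnmt1 shRNA and ATM-vector arrays for 8 ribosomal protein genes (squares) and a copy of each (circles), with the lowest signal well above background as a dotted line; brightness is not comparable between probes, so only the course of a line is to be read. The lines of Rpl39l and Rps4l cross the dotted line on the shRNA array alone (1324 and 371), Rpl10l and Rpl3l lie under it on all 3 arrays, and the other genes lie above it throughout.

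Because DNMT1 copies methylation at CG dinucleotides, the 250 bases before the transcription start of Rpl39l, of Rpl39 and of the dim copy Rpl10l are shown, from the RefSeq promoter table (GRCm38.p6), 5′ to 3′ on the strand of the gene, with each CG in capitals; a CG reads the same on both strands. The window of Rpl39l is chr16:10169978-10170227 (plus strand), that of Rpl39 is chrX:37085223-37085472 (minus strand) and that of Rpl10l is chr12:66284402-66284651 (minus strand). Rps4l has no entry in that table.
Rpl39l: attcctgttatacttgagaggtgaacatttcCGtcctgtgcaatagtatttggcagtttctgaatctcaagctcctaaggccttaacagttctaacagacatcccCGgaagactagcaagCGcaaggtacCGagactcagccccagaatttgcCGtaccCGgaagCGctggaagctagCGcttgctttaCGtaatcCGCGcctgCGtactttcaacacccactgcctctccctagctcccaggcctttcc
Rpl39: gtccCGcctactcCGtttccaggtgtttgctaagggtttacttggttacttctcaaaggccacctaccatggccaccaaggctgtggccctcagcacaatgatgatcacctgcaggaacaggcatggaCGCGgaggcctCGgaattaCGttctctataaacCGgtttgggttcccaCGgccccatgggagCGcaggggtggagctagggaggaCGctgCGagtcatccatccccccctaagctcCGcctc
Rpl10l: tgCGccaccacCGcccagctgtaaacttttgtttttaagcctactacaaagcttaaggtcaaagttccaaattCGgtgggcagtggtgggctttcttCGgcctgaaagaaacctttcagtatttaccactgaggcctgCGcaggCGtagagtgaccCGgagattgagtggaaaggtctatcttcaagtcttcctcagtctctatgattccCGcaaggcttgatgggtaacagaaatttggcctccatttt
Rpl39l held 12 CG and Rpl39, which was well above background on all 3 arrays, also held 12; Rpl10l held 8, and Rpl3l held 2. Of all 32851 starts in the table, 33.5% held at least 12 and 43.0% at least 8. The 66 starts of 56 core members had a median of 18.0 (5 to 31), against 6.0 over all starts. Methylation was not measured on these arrays, and the counts describe the letters only.

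Apart from these copies, the Dnmt1 shRNA array differed little from the empty-vector array in this family. Of the 83 members tested, 2 were at least 1.5-fold higher (Rpl39l and Rps4l) and 1 was lower (Rps27a), while 13.1% of all 19359 genes tested were higher and 4.74% lower (17.8% in either direction). At 2-fold the counts were 2 and 0, beside 7.68% and 2.23% of all genes. Among genes read only by bright probes, those whose value came from the scanner's low-gain scan, 0 of 78 members and 1.23% of 2277 other genes passed 1.5-fold in either direction. The median log2 ratio of the members was -0.07, or 1.05-fold lower, beside -0.02 over all genes, and it changed sign under cyclic loess scaling (0.05) and after the shift of other bright probes was subtracted (0.03). Of the members, 67 lay below 0 (52.0% of all genes did) and 16 above (48.0% of all genes).

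The single member called lower, Rps27a, rested on 1 of its probes. Rps27a encodes ubiquitin fused to a small-subunit protein. Its dimmest probe read 407, 52.6 and 115 on the empty-vector, shRNA and ATM-vector arrays, a log2 ratio of -2.79 for the shRNA array. That probe is annotated to another RefSeq transcript than the other probes of the gene. Those had ratios of 0.02 and 0.14, and the mean over the 3 was -0.87. The brightest probe read 308067, 279439.9 and 407116, so the gene showed no such difference by that probe. The next member in size, Rpl36al, an intronless copy of Rpl36a, read 89756, 58206 and 82559.9 and was just outside the call with -0.46.

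Probes of other members disagreed as well, and in each case below the dimmest probe stood apart. Rpl22, an RNA-binding large-subunit protein, had a mean log2 ratio of 0.31 for the shRNA array, made of 0.75 for its dimmer probe (7618, then 11397) and -0.13 for its brighter probe (164515, then 134085). Its copy Rpl22l1 read 81433 and 69269, a ratio of -0.07. Rps15a had a ratio of 0.27 that included a probe at 24.8 and 39.3, near background, while its bright probes gave -0.05 and 0.04.

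The family stood higher on the array labelled ATM vector, relative to the bulk of the genes, in the scaling used here. The median log2 ratio to the empty vector was 0.40 (1.31-fold) over 81 members tested, beside 0.05 over all 18463 genes tested. Of these members, 77 lay above 0 (54.0% of all genes) and 4 below (46.0% of all genes). Under quantile normalization the medians of members and of all genes were 0.04 and 0.02, with 47 members above 0, 33 below and no call. At least 1.5-fold higher were 7 members, or 8.64%, beside 17.2% of all genes. None was as much lower, beside 14.4% of all genes (31.6% differed in either direction), and none differed by 2-fold (8.45% of all genes were higher and 7.96% lower). Among genes read by such low-gain probes only, 8 of 78 members (10.3%) and 10.1% of 2277 other genes were at least 1.5-fold higher. The members lay close together, with a SD over the 81 genes of 0.22, whereas the SD over all genes tested was 1.14. These SDs are not at matched brightness: all 81 members, but only 16623 of the 18463 genes, were measured on both arrays. Among probes read at low gain on all 3 arrays, the quartiles were 0.24 and 0.50 for members. For other such probes they were -0.12 and 0.40. The SD between probes of the same member was 0.269 (85 degrees of freedom), so the spread between members was no larger than that between probes of a gene.

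**Figure D2:**
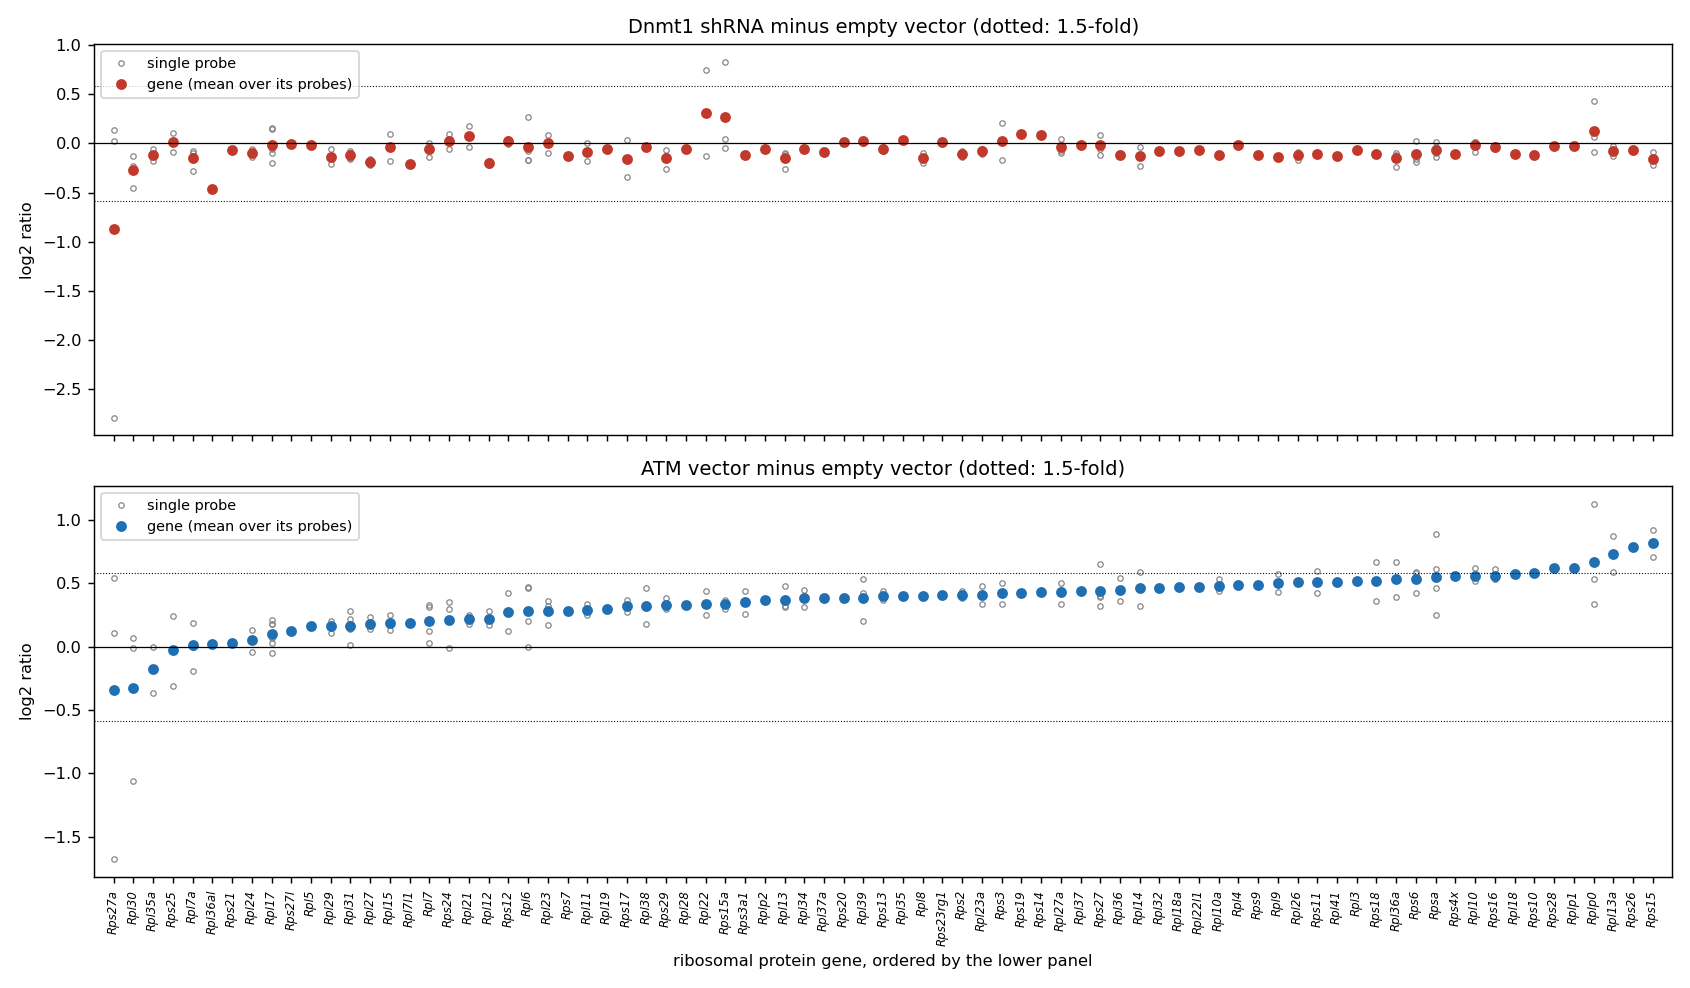
Log2 ratio of 79 of the 81 members well above background on all 3 arrays (filled points, mean over its probes) and of its single probes (open points), for the Dnmt1 shRNA array (upper panel) and the array labelled ATM vector (lower panel) against the empty-vector array, with dotted lines at 1.5-fold. In the lower panel 75 of the genes drawn lie above 0 and 6 pass the upper dotted line; in the upper panel most genes lie just below 0, a side that changes under cyclic loess scaling (median 0.05) and after the shift of other bright probes was subtracted (0.03), and a single Rps27a probe lies at -2.79.

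The members at the top came from both subunits. Rps15, a protein of the head of the small subunit, read 148013 with the empty vector, 118413 with the shRNA and 236698 with the ATM vector, a log2 ratio of 0.82, with its 2 probes at 0.71 and 0.92. Rps26, which lies at the messenger RNA exit site, read 269422, 228364 and 424663, a ratio of 0.79 from 1 probe. Rpl13a, known also for a role in silencing inflammatory messages, read 74602, 62985 and 112431, a ratio of 0.73 with probes at 0.59 and 0.87. In each of these genes the array labelled ATM vector was highest and the shRNA array lowest. Rps15 and Rps26 lie on chromosome 10, where other genes were higher as well, and with the chromosome's median subtracted they had 0.38 and 0.36 and were not called; Rpl13a had 0.57.

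The stalk proteins, which recruit elongation factors to the large subunit, were Rplp0, Rplp1 and Rplp2. Rplp0 read 223465, 218630.1 and 322328, a log2 ratio of 0.67 for the ATM vector, although its 3 probes ranged from 0.34 to 1.13. Rplp1 read 282559, 246710.4 and 394045, a ratio of 0.62, and Rplp2 read 369139, 315593 and 434341, a ratio of 0.37. All were highest on the array labelled ATM vector, and the first 2 passed 1.5-fold.

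Rps28, a small-subunit protein near the messenger RNA exit, had a ratio of 0.62. It read 274415, 239949 and 381967 and was the member closest to the limit from inside. Rps10 was the closest from outside, at 0.58 and 1.49-fold, with 322370.5, 264249 and 437085.

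The 4 members on the other side of 0 had probes that disagreed or small ratios. Rpl30 had a ratio of -0.33: its probe of lowest signal read 14603, 9548 and 6381, a ratio of -1.06, and its other probes had 0.07 and -0.01. The Rpl30 probe of lowest signal is annotated to another RefSeq transcript than the others. Rps27a had -0.34, again carried by the dim probe (-1.68, with 0.54 and 0.11 for the others). Rpl35a had -0.18 (probes at -0.37 and 0.00) and Rps25 had -0.03 (probes at -0.31 and 0.24). With the brightest probe of each gene in place of the mean, 80 of the 81 members lay above 0.

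Members with known roles outside the ribosome lay within the range of the family. Of the MDM2-binding proteins, Rpl5 read 98677, 86640.5 and 100045 (log2 ratio 0.16 for the ATM vector), Rpl11 read 163116, 136766 and 181529.8 (0.29), and Rpl23 read 115520.2, 102776 and 127888 (0.28). All 3 lay below the family's median of 0.40. Rpl26, which can bind p53 messenger RNA, read 109173, 89372 and 141130.2 (0.51), and its 3 probes lay between 0.50 and 0.52. Rps27l, a copy of Rps27 that p53 can induce, read 148744, 131406 and 147097 (0.12), whereas Rps27 itself had 0.44. Rps6, the substrate of the ribosomal S6 kinases, read 82336, 68119.9 and 107929 (0.53), and Rps19, often mutated in Diamond-Blackfan anaemia, read 122623, 116846 and 148822 (0.42).

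One Rpl23 probe was spotted 10 times on each array and shows the spread within an array. Its level was 3.33 ± 0.030 with the empty vector, 3.35 ± 0.029 with the shRNA and 3.70 ± 0.031 with the ATM vector (log2 scale relative to the 75th percentile, SD over 10 spots of 1 array). The highest spot of the first 2 arrays was 3.41, and the lowest spot of the ATM-vector array was 3.66, so the spots of that array did not overlap the others. How many of the 399 repeatedly spotted probes were separated in this way was not counted. This probe was read at low gain, and other low-gain probes had a median log2 ratio of 0.18 for the ATM vector. The 10 spots of an array share 1 RNA and say nothing of the spread between cultures.

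Both subunits had similar medians. In the core set, the median for the ATM vector was 0.38 over the 46 large-subunit genes and 0.42 over the 30 small-subunit genes. Of these, 3 (6.52%) and 4 (13.3%) were called higher, beside 17.2% of all genes. The medians for the shRNA were -0.08 and -0.07, with the changes of sign under other scalings given above for the family. The 4 X-linked core genes, Rpl10, Rpl36a, Rpl39 and Rps4x, had a median of 0.54 for the ATM vector, and their own values were 0.56, 0.53, 0.38 and 0.56.

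**Figure D3:**
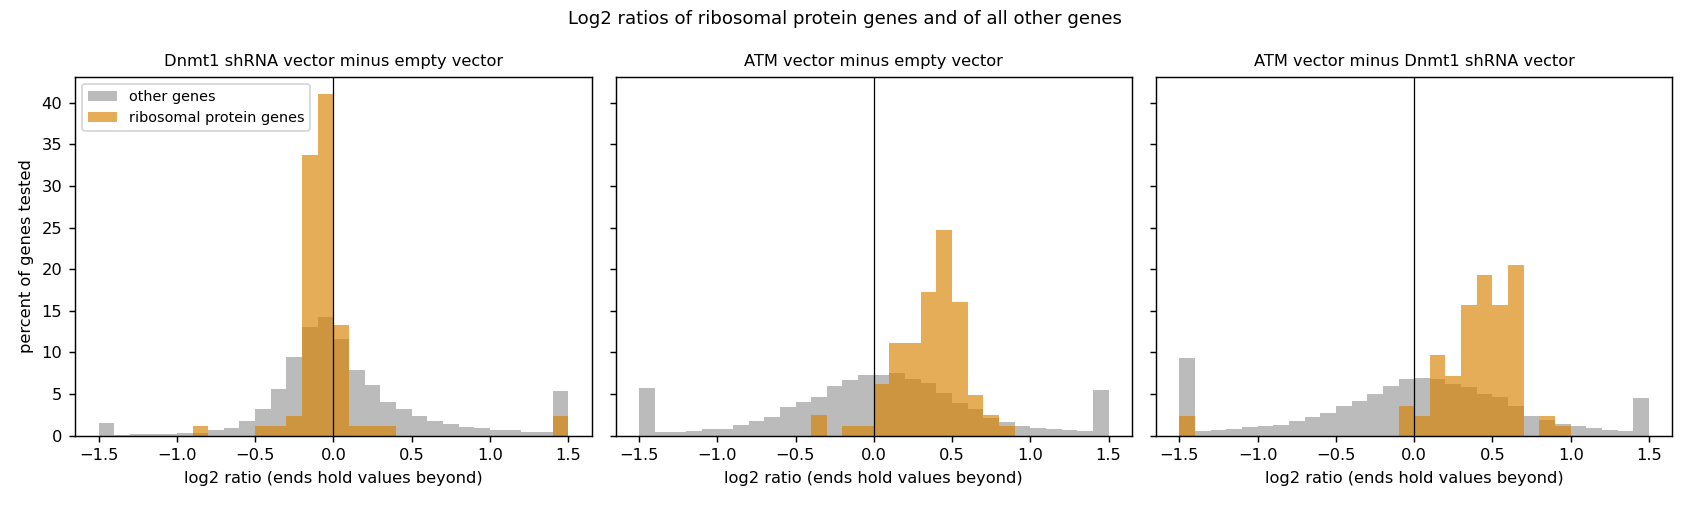
Share of genes tested (percent) by log2 ratio in bins of 0.1 for ribosomal protein genes and for all other genes, in the 3 comparisons; the outermost bins hold all values beyond. The members form a narrow group around -0.07, 0.40 and 0.46 (medians), the first of which changes sign under cyclic loess scaling (0.05) and after the shift of other bright probes was subtracted (0.03), and Rpl39l and Rps4l lie in the outermost bins.

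The array labelled ATM vector and the shRNA array, each set above against the same empty-vector array, were also compared directly. Of 83 members tested, 23 were at least 1.5-fold higher on the array labelled ATM vector, beside 18.0% of 19525 genes, and 2 were lower (Rpl39l and Rps4l, dim on that array, with the bounds given above), beside 19.4% (37.4% in either direction). At 2-fold the counts were 0 higher and 2 lower, beside 7.88% and 12.5% of all genes. Above 0 were 78 members (52.9% of all genes) and below 0 were 5 (47.1%). The median was 0.46, beside 0.04 over all genes. Under quantile normalization it was 0.06, beside 0.08 over all genes, and none of the members was called higher. Among genes read by low-gain probes only, 30.8% of 78 members and 17.8% of 2277 other genes were called higher. The highest were Rps15 (0.97), Rps26 (0.87), Rpl13a (0.81), Rps10 (0.70) and Rpl36a (0.68). Rpl10 (0.59) was the call closest to the limit and Rpl36 (0.57) was just outside. Of the 76 core members, 61 were highest on the array labelled ATM vector and lowest on the shRNA array, in the scaling used here. The share of all genes in that order was not counted. Against the empty vector, 65.5% of 2535 other low-gain probes lay above 0 for the ATM vector and 76.0% below 0 for the shRNA.

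Most probes of this family lie in a brightness range that the scanner reads separately. The arrays were scanned at a high and a low gain, and a mark tells which spots took their value from the low-gain scan. It was set for 85.7%, 84.6% and 86.8% of the members' 182 spots on the empty-vector, shRNA and ATM-vector arrays, and for 8.25%, 7.21% and 7.77% of all spots. The 2535 other probes with the mark on all 3 arrays had a median log2 ratio of 0.18 for the ATM vector and -0.10 for the shRNA, each against the empty vector. The 148 member probes with the mark had 0.39 and -0.09. The 18 member probes without it, still well above background on all 3 arrays, had 0.22 and -0.01, and 13 of these 18 lay above 0 for the ATM vector. With the shift of the other marked probes subtracted, the members' median was 0.22 for the ATM vector and 0.03 for the shRNA. The part of the scan in the result was not tested further.

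**Figure D4:**
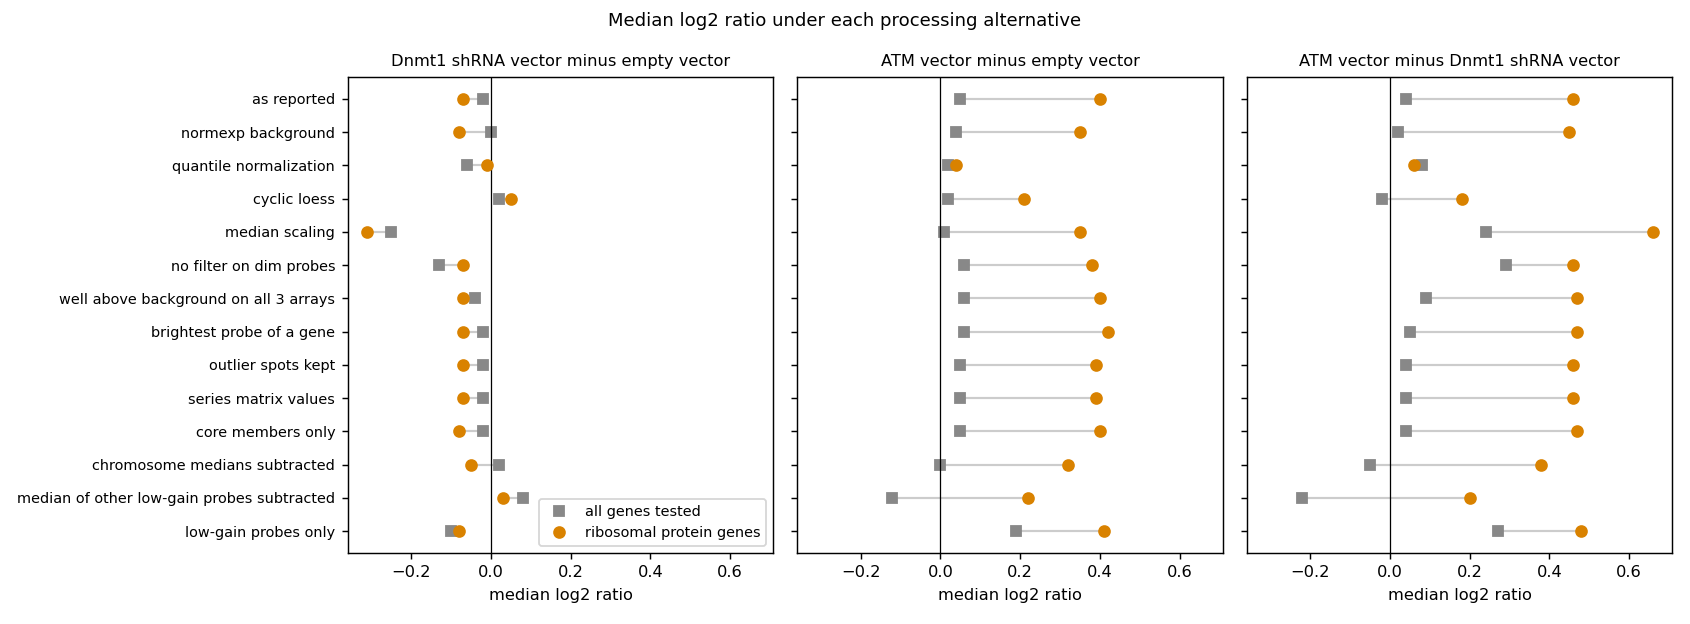
Median log2 ratio of the ribosomal protein genes (circles) and of all genes tested (squares) in the 3 comparisons, as reported and under each alternative way of processing. The members' median for the ATM vector against the empty vector is 0.40 as reported, 0.21 under cyclic loess and 0.04 under quantile normalization, and that for the shRNA changes sign under cyclic loess (0.05) and with the shift of other low-gain probes subtracted (0.03).

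Position in the genome also went with part of the spread for the ATM vector. Chromosome 10 holds the core genes Rpl41, Rps12, Rps15 and Rps26, which had a median log2 ratio of 0.65, and the 588 other genes of that chromosome measured on both arrays had 0.44. Rpl24 and Rpl35a on chromosome 16 had -0.07, and the 376 other genes had -0.20. On chromosome 2 the values were 0.13 for Rpl12, Rpl35, Rpl7a and Rps21 and -0.23 for the 952 other genes, and on the X chromosome 0.54 and 0.30. On each of the 18 chromosomes with a core member, the core median lay above that of the other genes. With the median of its chromosome subtracted from each gene, the family's median was 0.32 and the calls numbered 3 (Rps14, 0.76; Rpl35, 0.63; Rplp0, 0.61), of which only Rplp0 was among the 7 above. The part of chromosome dosage in these values was not tested.

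**Figure D5:**
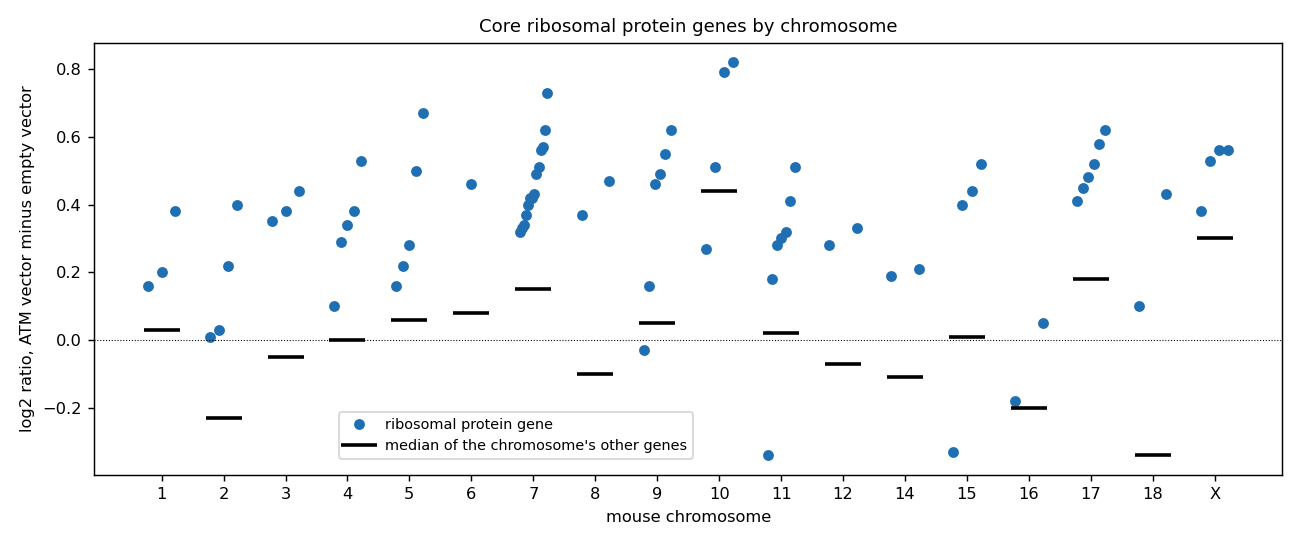
Log2 ratio of the array labelled ATM vector to the empty-vector array for each of the 76 core ribosomal protein genes (points), by chromosome, with the median of the other genes of that chromosome (bars); points are set side by side only to keep them apart. Chromosome 10 is highest in both (0.65 and 0.44), and chromosome 16 is lowest in the core genes (-0.07).

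Start sites were examined for the pyrimidine tract that many of these messages carry. The log2 ratios of members with and without it were not compared. A start was counted as pyrimidine-led if, on the strand of the gene, its first transcribed base was C and the next 4 bases were each C or T. Of the 64 members with a start in the RefSeq table, 13 had such a start (20.3%), beside 3.01% of all 27025 genes in it. The 30 bases around the start are shown for Rps10, Rplp2, Rps6 and Rpl35a, which carry the motif and had log2 ratios for the ATM vector from 0.58 down to -0.18. Capitals mark the first 5 transcribed bases, and the windows (GRCm38.p6) are chr17:27635230-27635259 (minus strand), chr7:141447636-141447665 (plus strand), chr4:86857353-86857382 (minus strand) and chr16:33056467-33056496 (plus strand).
Rps10: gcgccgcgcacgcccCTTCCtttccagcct
Rplp2: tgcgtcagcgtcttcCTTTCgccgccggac
Rps6: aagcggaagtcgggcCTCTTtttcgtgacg
Rpl35a: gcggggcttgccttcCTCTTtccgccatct
The ratios of these genes for the ATM vector were 0.58, 0.37, 0.53 and -0.18. A table start that is off by a base hides the motif, so its absence says nothing of a gene.

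The non-ribosomal messages known to carry the same tract lay close to the family. Their median log2 ratio was 0.42 for the ATM vector, with 20 of 20 above 0 (54.0% of all genes) and 4 called higher (20.0%, beside 17.2% of all genes), and it lay between 0.16 and 0.44 over all settings tried. For the shRNA it was -0.07, which changed sign under the same alternatives as the family's, cyclic loess and the subtraction of the bright probes' shift. Naca, which chaperones nascent chains, read 130765, 115367 and 201722 (0.76 for the ATM vector), and Eef2, the translocation factor, read 177898, 159468 and 268229 (0.73). Eif3f (0.15) and Vim (0.18) were the lowest. Fau, a ribosomal protein gene fused to a ubiquitin-like protein whose symbol the rule does not take, had 0.43.

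Other parts of the translation machinery had lower medians than the family for the ATM vector, a difference that 1 array per group does not allow to be tested. The 78 mitochondrial ribosomal protein genes tested had a median of 0.07, with 4 called higher and 4 lower (10.3% in all, beside 31.6% of all genes), and the sign changed under 3 alternatives (down to -0.11). For the shRNA they had -0.20, with none called, beside 17.8% of all genes, and stayed negative under every alternative (-0.44 to -0.10). Mrps6 (0.88) and Mrps2 (-0.69) were the extremes for the ATM vector. Translation factors (56 tested) had 0.10 for the ATM vector, with 5 called higher and 4 lower (16.1% in all), or -0.08 with the shift of the bright probes subtracted. The scaffold factor Eif4g3 was lowest, with a signal of 618, 413 and 53.6 on the 3 arrays and a ratio of -3.39. The helicase Eif4a2 read 6300.2, 6134 and 12943, a ratio of 1.18.

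Genes for building ribosomes had a lower median for the shRNA than the ribosomal proteins, again without a test. The 58 biogenesis genes had -0.29, with 54 below 0 (93.1%, beside 52.0% of all genes) and 3 called lower (5.17%, beside 4.74%), and stayed negative under every alternative (-0.53 to -0.19). For the ATM vector their median was -0.01, with 3 called in each direction (10.3% in all, beside 31.6% of all genes). This median ranged from -0.18 with the bright probes' shift subtracted to 0.01 under normexp. Utp14a, of the small-subunit processome, read 341, 199 and 873, a ratio of -0.61 for the shRNA and a level 2.82-fold higher for the ATM vector. Nop2, a methyltransferase of ribosomal RNA, read 47815, 32710.3 and 19988, a ratio of -1.12 for the ATM vector. The 14 RNA polymerase I genes, which transcribe ribosomal RNA, had -0.20 for the shRNA (-0.44 to -0.10 over the settings tried) and 0.07 for the ATM vector (-0.10 with the bright probes' shift subtracted).

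Regulators of ribosome production had medians of -0.06 for the shRNA and -0.05 for the ATM vector over 19 tested, both of which changed sign with low-gain probes only. For the ATM vector, 4 of the 19 regulators were called, 2 in each direction (21.1% in all, beside 31.6% of all genes). Among these, the kinase Mtor read 905 with the empty vector and 481 with the ATM vector (-0.77). Its targets Eif4ebp1 and Eif4ebp2, which hold back cap-dependent translation, had 0.76 and 0.88. The Myc-family gene Mycn read 94.3, 144 and 8.59 and was not above background on the array labelled ATM vector. For the shRNA, 2 of the 19 regulators were called (10.5%, beside 17.8% of all genes). Both were higher (13.1% of all genes were): Mycn (0.77) and Mxd4 (0.79), a repressor that competes with Myc for its partner. Larp1 was the lowest there, with 10552, 7339 and 10255 and a ratio of -0.36.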

How the data were processed

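The authors deposited Agilent Feature Extraction output (version 10.7.3.1 in the submitters' processing notes). Its processed signal is a linear intensity with local background and spatial trend subtracted and surrogate values near background, per the file headers, which record no scaling between arrays. Other deposited quantities are marks of 0 or 1 per spot (outlier, well above background, low-gain scan). Control and outlier spots were left out, log2 signals were averaged per probe (39404 probes; 44397 spots an array, of which 0 were saturated) and each array was set relative to its 75th percentile. A probe counted where more than 0.5 of its spots were well above background on 1 of the 2 arrays, and a gene's ratio is the mean over such probes. The gene's signal uses the probes well above background on all 3 arrays, or all its probes where there are none. Names came from accessions in the files through the RefSeq gene table of GRCm38.p6 (26397 probes with 1 symbol, 0 with several, 13007 with none). Probes with none kept the array's identifier and counted among all genes. The array design used another build, so only that table's names and chromosomes were used. RefSeq lists 309 pseudogenes of this family, so signals can include near-identical copies. Probe sequences were not used here.

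Groups came from the transfection label. The members, lists and alternatives were chosen with earlier results of these data known. Genes named are the members called, the extremes and the values next to the limit in each comparison, members dim on an array or with discordant probes, members with named roles or a copy, and the 2 highest and 2 lowest of each related list; some are given only as counts, and a few are not reported here by name. Alternatives were another background correction (normexp, offset 50, on the median signal, in place of the mean signal that was planned), quantile, cyclic loess and median scaling (limma 3.58.1), other filters on dim probes, the brightest probe, outlier spots kept, and the series matrix, whose intensity values the authors deposited lie within 0.495% of the processed signal. Python 3.11.15, pandas 2.3.3 and R 4.3.3 were used. The calculations were tested on simulated data.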

Additional observations from a re-analysis of the deposited data

How the results depend on the processing

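With 1 array per group, nothing here separates a vector from its array, and the cause of each change below was not tested. No paired analysis was possible because each group has 1 array. The members' median for the shRNA against the empty vector was 0.05 under cyclic loess, -0.31 under median scaling (which moved the median of all genes by -0.24) and 0.03 with the median of other low-gain probes subtracted; the calls at 1.5-fold, 3 as reported, were 1 with probes above background on all 3 arrays, 1 with core members only and 0 with low-gain probes only. Rps27a had 0.02 by its brightest probe and 0.08 by low-gain probes. For the ATM vector against the empty vector, the median was 0.04 (quantile), 0.21 (cyclic loess) and 0.22 (low-gain median subtracted); the calls, 7 as reported, were 12 (normexp), 0 (quantile), 2 (cyclic loess), 4 (median scaling), 12 (brightest probe), 3 (chromosome medians subtracted) and 2 (low-gain median subtracted). For the ATM vector against the shRNA, the median was 0.06 (quantile), 0.18 (cyclic loess), 0.66 (median scaling), 0.38 (chromosome medians) and 0.20 (low-gain median); the calls, 25 as reported, were 2, 3, 53, 8 and 4 in that order. The alternatives on core members, chromosomes and low-gain probes were chosen after seeing the data. Under all alternatives, Rpl39l and Rps4l stayed past 1.5-fold where their dim arrays counted, with the shRNA against the empty vector at 4.51 to 7.66 and 2.40 to 4.84. Of 1897 values of single genes, 669 moved by more than the spread of repeated spots (SD 0.080), and 143 had another sign than reported (77 of them for the shRNA against the empty vector). Of values past 1.5-fold as reported, 2 changed sign, both of Rps27a.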
